A study of Mus musculus with 13 samples.

Results

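The immediate early genes described here are 33 genes that neurons and other cells induce after a stimulus, many of them within minutes. They were taken by gene name from a table of 36287 genes measured in the hippocampus of 5xFAD mice, and all 33 were found and passed the filter on low counts, as did 22065 genes in all. The mice of all 3 groups were 5xFAD, a line that carries human amyloid precursor protein and presenilin 1 transgenes with familial Alzheimer's disease mutations under the neuronal Thy1 promoter. A group without the transgenes was not analysed here. The animals received ACLP-NT, an agent known here only by its code name (5 libraries, animals 17, 27, 49, 53 and 55), the amyloid beta antibody Aducanumab (4 libraries, animals 24, 50, 56 and 58), or saline (4 libraries, animals 18, 19, 32 and 38). Each library is bulk poly(A)-selected RNA from 1 animal, as numbered in the labels. The labels give no age, sex, dose, treatment time, batch or collection time.

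Immediate early genes need no new protein for their induction. Calcium entering through NMDA receptors and voltage-gated channels activates calcium/calmodulin kinases and the ERK cascade, which phosphorylate the factors CREB and ELK1 already bound at the promoters, and serum response factor acts with ELK1. The induced transcripts encode transcription factors (the Fos, Egr and Nr4a families and Npas4), proteins of the synapse (Arc, Homer1, Bdnf, Nptx2), and brakes on the same cascade, such as the dual specificity phosphatases. In the hippocampus they are used as markers of cells that were recently active, and their transcripts are short-lived.

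The DNA that carries this response is shown first, because CREB and serum response factor act on such genes through short DNA sites. Promoter sequences of 26 of the 33 genes were found in a RefSeq table of the GRCm38.p6 build. Ier2, Egr3, Nptx2, Dusp4, Egr1, Arc and Sik1 were not matched. The 250 bases before the start are printed below for the 4 genes with the closest covariation in these libraries (Egr4, Dusp5, Junb and Nr4a3) and for Fos and Npas4, which lay outside their group when genes were ordered by similarity. The 6 windows are chr6:85513590-85513839 on the minus strand for Egr4, chr19:53528895-53529144 on the plus strand for Dusp5, chr8:84978749-84978998 on the minus strand for Junb, chr4:48045055-48045304 on the plus strand for Nr4a3, chr12:85473640-85473889 on the plus strand for Fos, and chr19:4989972-4990221 on the minus strand for Npas4. Capitals mark TGACG, the core of the cAMP response element that CREB binds, read on either strand (as CGTCA on the other), and in Dusp5 also the CArG box, the site of serum response factor.
Egr4: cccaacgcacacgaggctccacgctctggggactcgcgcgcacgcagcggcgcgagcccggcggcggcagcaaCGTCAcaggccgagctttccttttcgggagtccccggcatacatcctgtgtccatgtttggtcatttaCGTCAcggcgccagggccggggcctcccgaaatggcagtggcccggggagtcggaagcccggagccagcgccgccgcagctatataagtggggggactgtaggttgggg
Dusp5: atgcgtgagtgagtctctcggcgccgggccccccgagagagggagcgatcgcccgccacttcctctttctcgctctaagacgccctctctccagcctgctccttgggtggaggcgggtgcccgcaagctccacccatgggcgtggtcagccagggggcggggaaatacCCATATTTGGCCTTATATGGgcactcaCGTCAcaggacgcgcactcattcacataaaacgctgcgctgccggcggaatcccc
Junb: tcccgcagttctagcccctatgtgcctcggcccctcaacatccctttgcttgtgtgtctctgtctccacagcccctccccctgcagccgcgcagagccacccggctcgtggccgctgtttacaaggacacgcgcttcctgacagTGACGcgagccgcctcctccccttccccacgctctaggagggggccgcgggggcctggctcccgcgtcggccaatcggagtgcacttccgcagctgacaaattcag
Nr4a3: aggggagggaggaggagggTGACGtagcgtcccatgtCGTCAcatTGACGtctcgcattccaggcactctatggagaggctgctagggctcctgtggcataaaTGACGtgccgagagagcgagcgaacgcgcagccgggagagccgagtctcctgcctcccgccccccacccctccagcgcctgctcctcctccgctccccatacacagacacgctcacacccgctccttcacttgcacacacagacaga
Fos: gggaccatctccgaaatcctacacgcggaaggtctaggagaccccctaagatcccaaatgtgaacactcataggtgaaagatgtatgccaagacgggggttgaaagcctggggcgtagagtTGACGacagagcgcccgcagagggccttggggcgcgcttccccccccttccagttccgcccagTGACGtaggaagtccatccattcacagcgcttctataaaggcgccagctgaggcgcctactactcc
Npas4: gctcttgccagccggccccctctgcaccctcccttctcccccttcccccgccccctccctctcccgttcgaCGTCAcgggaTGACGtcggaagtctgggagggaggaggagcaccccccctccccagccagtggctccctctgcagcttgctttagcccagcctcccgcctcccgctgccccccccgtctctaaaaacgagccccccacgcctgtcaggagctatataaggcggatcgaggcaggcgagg

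Egr4 held TGACG at -177 and -109 from the start, Junb at -106, Fos at -129 and -66, and Npas4 at -179 and -169. Nr4a3 held 4 copies, at -231, -213, -205 and -147. Dusp5 held 1 copy at -55 and 2 adjoining CArG boxes at -82 and -72. Among the 26 genes, 19 (73.1%) held TGACG within these 250 bases on either strand, against 5347 of the 27025 genes in the promoter table (19.8%). The full palindrome TGACGTCA, which contains TGACG on both strands, was found in Dusp1, Btg2 and Maff (3 of 26, 11.5%), against 478 genes (1.77%). The CArG box was found in Egr2 and Dusp5 (2 of 26, 7.69%), against 439 genes (1.62%). Bases beyond these 250 were not searched, so a gene without a match, such as Fos for the CArG box, may hold one elsewhere. Unmatched genes such as Egr1 and Arc were not searched at all. These are matches of letters, and the genes were not matched for base composition. Binding was not measured.

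Between libraries the sequencing depth ran from 53642019 counts (ACLP-NT 53) to 69734713 (saline 38), and the 33 genes together took 0.0857% (Aducanumab 58) to 0.110% (ACLP-NT 27) of the counts of a library. Of the 33 genes, 32 had a mean count of at least 100. The lowest single count was 30 (Maff in ACLP-NT 27), where counting error alone is 18.3%. Markers of the labelled tissue were present: the summed level of 7 dentate gyrus markers was 398 to 555 CPM (counts scaled to the library total, TMM adjusted), and that of 9 markers of the CA fields 1273 to 1631 CPM. Markers of neighbouring tissue were unequal. The summed level of 10 choroid plexus markers was 87.7 to 5038 CPM in ACLP-NT, 84.5 to 5140 CPM in Aducanumab and 50.6 to 5032 CPM in saline libraries, so each group held libraries near both ends. Aducanumab 58 had the highest score of 8 meningeal fibroblast markers (1.38, the mean centred log2 CPM), of 8 endothelial markers (0.43), of 7 pericyte and smooth muscle markers (0.73) and of 5 blood markers (1.12), and the lowest score of the CA field markers (-0.23). It was also the library with the lowest level of 10 of the 33 genes and the highest level of 5 others. In bulk RNA, fewer cells of a type and less RNA per cell cannot be told apart.

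Per length of transcript, Arc was the most abundant of the 33 genes, with a mean of 34.7 FPKM over the 13 libraries (fragment counts scaled to transcript length and library total). Junb followed with 19.4 FPKM, Egr1 with 17.0 FPKM, Egr3 with 16.7 FPKM, Dusp6 with 15.4 FPKM and Nr4a1 with 14.3 FPKM. The ranges over libraries of each neighbouring pair among these 5 genes overlapped. Junb lay above Nr4a1 throughout, with a lowest value of 16.7 FPKM against a highest Nr4a1 value of 16.0 FPKM. Arc stood above all 5 genes, since its lowest library had 28.3 FPKM and the highest value of Junb was 21.5 FPKM. Fos, the gene most often used as an activity marker, was at a mean of 3.68 FPKM and Npas4 at 2.54 FPKM. In all, 19 of the 33 genes had a mean of at least 5 FPKM, and 3 were under 1 FPKM (Egr2 at 0.786, Pim1 at 0.652 and Maff at 0.535 FPKM). Most genes were steady between animals. The highest library was under 2 times the lowest for 27 of the 33 genes, with 1.28 times for Egr3 as the smallest spread. The other 6 were Maff (4.92 times), Egr2 (4.09), Nr4a2 (2.78), Klf2 (2.55), Atf3 (2.11) and Pim1 (2.01), of which all but Nr4a2 and Klf2 are the genes with the lowest counts.

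**Figure D1:**
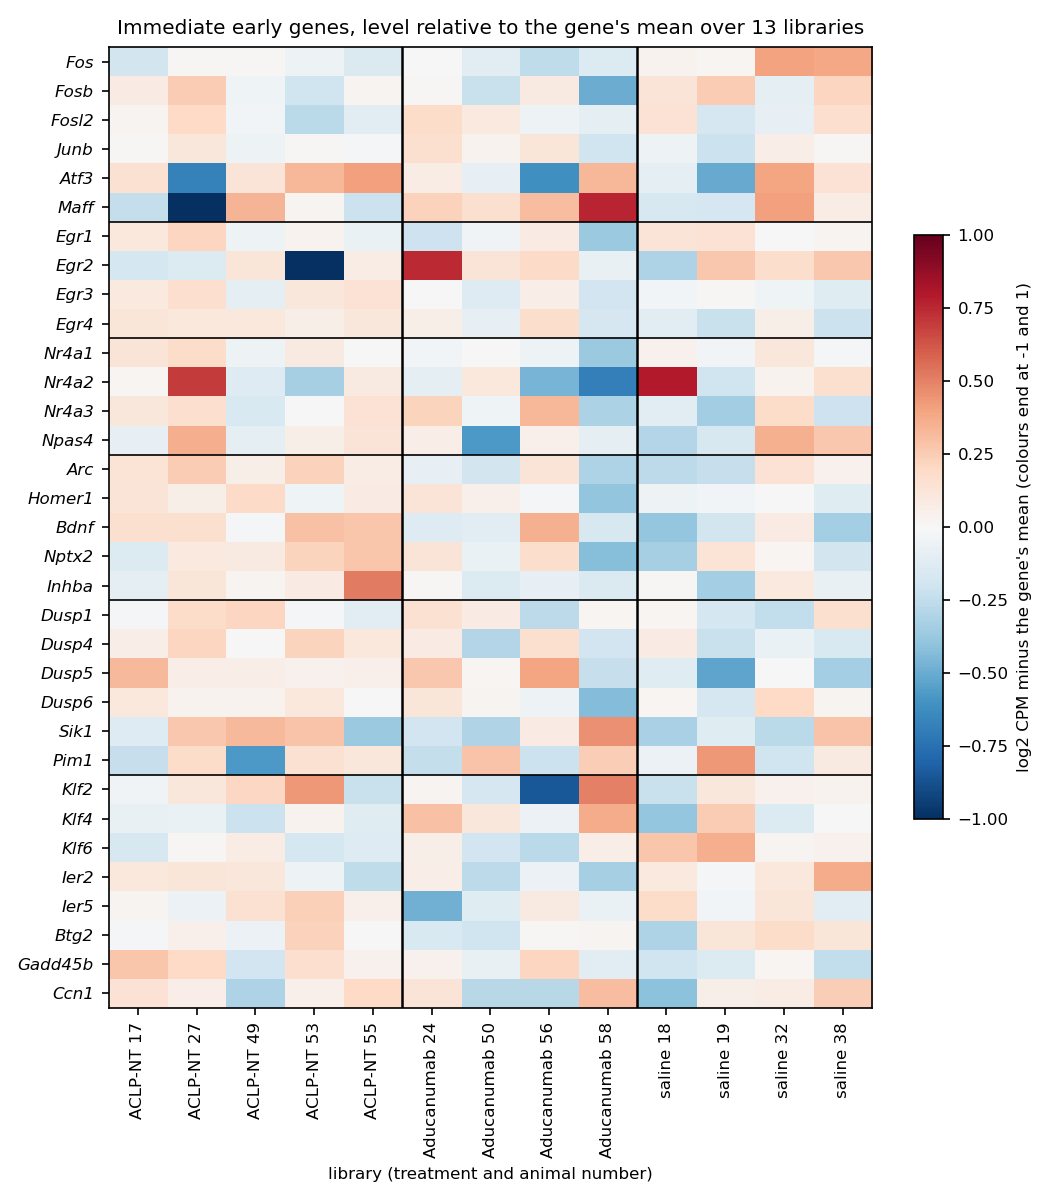
Level of each of the 33 genes (rows, grouped by role) in each of the 13 libraries (columns, ACLP-NT, Aducanumab, then saline), as log2 CPM minus the gene's mean over libraries. The column of Aducanumab 58 is low for 10 genes that have their lowest value there, among them Arc, Egr1, Nr4a1 and Dusp6, and high for Klf2, Klf4, Ccn1, Sik1 and Maff.

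Among the AP-1 genes, Fos was lower in both treatments than in saline in CPM, by a narrow margin for ACLP-NT. Fos, the dimer partner of the Jun proteins, lies on chromosome 12 from 85520664 to 85524047 in the deposited table, whose build is not given. It had 8.18, 9.35, 9.37, 8.95 and 8.41 CPM in ACLP-NT libraries, 9.31, 8.59, 7.79 and 8.44 CPM in Aducanumab libraries, and 9.52, 9.38, 12.2 and 12.1 CPM in saline libraries. In CPM all 9 treated libraries lay below all 4 saline libraries. The share of all genes with this pooled order was not counted. Taken alone, ACLP-NT lay wholly below saline for 1.33% of all genes, and Aducanumab for 1.41%. Saline 18 and 19 lay just above the highest treated library, and the distance came mainly from saline 32 and 38. In FPKM ACLP-NT and saline overlapped, since ACLP-NT 49 (3.74 FPKM) lay above saline 19 (3.69 FPKM). Fosb, whose truncated product accumulates with repeated activity, averaged 7.30 ± 0.844 CPM in ACLP-NT, 6.50 ± 1.14 CPM in Aducanumab and 7.83 ± 0.816 CPM in saline libraries (SD, n = 5, 4 and 4, as for all group means below). Its groups overlapped.

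Junb, the most abundant AP-1 gene here per length, had 48.5, 52.1, 46.5, 48.5 and 47.4 CPM in ACLP-NT, 53.8, 49.4, 52.3 and 41.9 CPM in Aducanumab, and 46.3, 41.4, 50.3 and 48.4 CPM in saline libraries. The 3 groups overlapped fully, and the lowest values were in Aducanumab 58 and saline 19. Fosl2, which encodes the Fos relative Fra-2, ran from 37.4 CPM (ACLP-NT 53) to 51.9 CPM (ACLP-NT 27), so that 1 group held both extremes. Atf3, a factor induced by cell stress, ran from 1.85 to 3.91 CPM, and Maff, a small Maf protein that lacks an activation domain, from 0.492 to 2.42 CPM. Both rest on few counts.

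Of the 4 Egr genes, which encode zinc finger factors with a shared DNA-binding domain, Egr4 was the most uniform within ACLP-NT. Egr4, on chromosome 6 from 85488103 to 85490571 in the deposited table, had 24.7, 24.5, 24.4, 23.6 and 24.6 CPM in ACLP-NT, 23.7, 21.5, 25.6 and 20.2 CPM in Aducanumab, and 21.0, 19.4, 23.7 and 19.5 CPM in saline libraries. Of the 5 ACLP-NT libraries, 4 lay above every saline library, and ACLP-NT 53 lay just below saline 32. Egr1, also known as Zif268, had 88.4, 95.0, 79.3, 83.9 and 78.3 CPM in ACLP-NT, 70.9, 79.9, 86.7 and 63.2 CPM in Aducanumab, and 89.6, 90.5, 82.2 and 83.4 CPM in saline libraries. Of the 4 Aducanumab libraries, 3 lay below every saline library. Egr3 averaged 84.1 ± 5.92 CPM in ACLP-NT, 76.0 ± 6.29 CPM in Aducanumab and 76.8 ± 2.97 CPM in saline libraries. Egr2 ran from 1.14 CPM (ACLP-NT 53) to 4.66 CPM (Aducanumab 24).

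The 3 Nr4a genes encode orphan nuclear receptors that act without a known ligand, and Nr4a1 had its one low value in Aducanumab 58. Nr4a1 had 58.9, 61.2, 52.2, 57.3 and 53.9 CPM in ACLP-NT, 52.9, 53.9, 52.2 and 41.8 CPM in Aducanumab, and 55.5, 53.0, 58.4 and 53.1 CPM in saline libraries. Nr4a2, also known as Nurr1, had 34.6, 55.3, 31.1, 27.1 and 36.3 CPM in ACLP-NT, 31.8, 36.7, 24.7 and 21.2 CPM in Aducanumab, and 59.1, 29.6, 34.98 and 38.2 CPM in saline libraries. The high values were those of ACLP-NT 27 and saline 18, and the groups overlapped. Nr4a3 ran from 53.3 CPM (saline 19) to 85.4 CPM (Aducanumab 56), with 54.8 CPM in Aducanumab 58. Npas4, a factor largely restricted to neurons and induced by calcium entry, ran from 7.49 CPM (Aducanumab 50) to 14.4 CPM (ACLP-NT 27), and saline libraries spanned 9.08 to 14.3 CPM.

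Arc, Bdnf, Homer1, Nptx2 and Inhba, whose products act at the synapse or signal between cells, each averaged highest in ACLP-NT. So did members of other roles, such as Egr3, Egr4 and Dusp4. The groups overlapped for Arc, Bdnf, Homer1, Nptx2 and Inhba. Bdnf, a neurotrophin that strengthens synapses, is on chromosome 2 from 109505045 to 109557352 in the deposited table. It had 38.5, 38.4, 34.1, 42.2 and 41.6 CPM in ACLP-NT, 31.4, 31.8, 43.9 and 30.7 CPM in Aducanumab, and 26.2, 30.2, 36.4 and 27.2 CPM in saline libraries. ACLP-NT 49 lay below saline 32, and the other 4 ACLP-NT libraries lay above all of saline. Arc, which forms capsid-like particles and removes AMPA receptors from the synapse, is on chromosome 15 from 74540932 to 74544419. It had 124, 135, 118, 133 and 119 CPM in ACLP-NT, 107, 99.98, 124 and 91.6 CPM in Aducanumab, and 94.4, 96.8, 125 and 117 CPM in saline libraries. Arc values in Aducanumab and saline each covered a wide span, and Aducanumab 56 and saline 32 reached the ACLP-NT range.

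Homer1, a scaffold of metabotropic glutamate receptors whose short activity-induced form is not separated in gene counts, ran from 72.9 CPM (Aducanumab 58) to 109 CPM (ACLP-NT 49). Nptx2, a secreted pentraxin that clusters AMPA receptors, ran from 16.7 CPM (Aducanumab 58) to 27.1 CPM (ACLP-NT 55). Inhba, a subunit of activin, ran from 7.39 CPM (saline 19) to 13.4 CPM (ACLP-NT 55). For each of these 3 genes the highest library was an ACLP-NT library, while the groups overlapped.

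Among the brakes on signalling, Dusp5 separated ACLP-NT from saline. Dusp5, a nuclear phosphatase of ERK, is on chromosome 19 from 53517540 to 53530862 in the deposited table. It had 25.6, 21.3, 21.3, 21.0 and 21.1 CPM in ACLP-NT, 24.7, 20.7, 26.8 and 17.4 CPM in Aducanumab, and 18.8, 14.1, 20.4 and 16.1 CPM in saline libraries. All 5 ACLP-NT libraries lay above saline, with ACLP-NT 53 closest to saline 32, and Aducanumab 58 lay among the saline libraries. The other 3 phosphatases overlapped between groups. Dusp6, the cytoplasmic ERK phosphatase, ran from 38.2 CPM in Aducanumab 58 to 59.3 CPM in saline 32. Dusp4, a nuclear phosphatase, ran from 14.3 to 20.5 CPM, and Dusp1, which acts on p38 and JNK as well, from 13.02 to 18.2 CPM.

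The kinase genes were Sik1 and Pim1. Sik1, which phosphorylates the CREB coactivators, had 11.6, 15.3, 15.9, 15.4 and 9.81 CPM in ACLP-NT, 11.1, 10.3, 13.4 and 17.4 CPM in Aducanumab, and 10.2, 11.7, 10.6 and 15.4 CPM in saline libraries. Each group held its lowest library near that of the other groups, and its highest too, so the groups overlapped throughout. Pim1, a kinase of cell growth, ran from 1.58 to 3.18 CPM.

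The remaining genes are less specific to neurons. Klf6, a zinc finger factor also induced by injury, is on chromosome 13 from 5911481 to 5920393 in the deposited table. It had 27.9, 31.3, 32.7, 27.5 and 28.4 CPM in ACLP-NT, 32.4, 27.3, 25.7 and 32.5 CPM in Aducanumab, and 37.6, 40.0, 31.7 and 32.0 CPM in saline libraries. Saline 18 and 19 lay above all treated libraries, and saline 32 and 38 lay within the treated range, the reverse of their order for Fos. Klf2, which endothelial cells induce under flow, had 13.1, 14.5, 15.4, 18.1 and 11.5 CPM in ACLP-NT, 13.7, 11.9, 7.46 and 19.0 CPM in Aducanumab, and 11.5, 14.5, 13.8 and 13.7 CPM in saline libraries. Aducanumab thus held both extremes of Klf2.

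Klf4, a related factor, averaged 5.05 ± 0.321 CPM in ACLP-NT, 6.11 ± 0.800 CPM in Aducanumab and 5.18 ± 0.955 CPM in saline libraries. Ier2, a nuclear protein of the early serum response, averaged 6.13 ± 0.656 CPM in ACLP-NT, 5.52 ± 0.707 CPM in Aducanumab and 6.72 ± 0.786 CPM in saline libraries. Gadd45b, a protein of the stress response and DNA demethylation, averaged 10.6 ± 1.29 CPM in ACLP-NT, 10.03 ± 1.04 CPM in Aducanumab and 8.97 ± 0.748 CPM in saline libraries. In all 3 genes the groups overlapped. Ier5 ran from 26.8 CPM (Aducanumab 24) to 44.1 CPM (ACLP-NT 53). Btg2, an antiproliferative protein that recruits the deadenylase complex, ran from 13.7 to 19.9 CPM, and Ccn1, a secreted matrix protein, from 4.32 to 7.12 CPM.

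**Figure D2:**
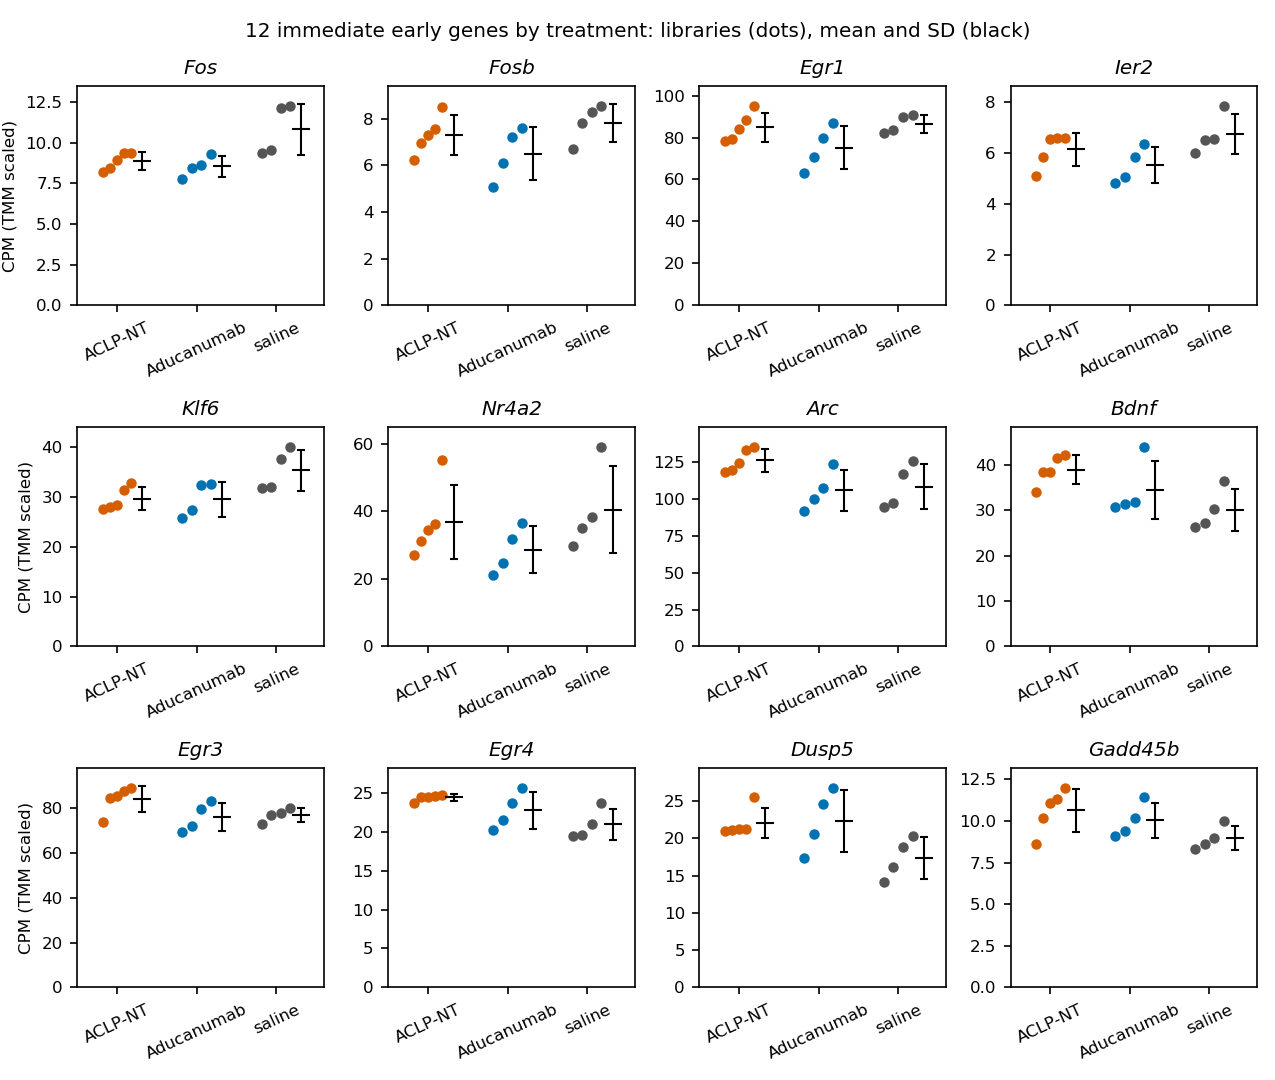
Level of 12 of the genes in CPM (vertical axes, from 0) in ACLP-NT, Aducanumab and saline libraries, each dot 1 library, with the mean and SD in black beside it. For Fos, all treated libraries are below saline in CPM, by a narrow margin for ACLP-NT, and for Dusp5, all ACLP-NT libraries are above saline.

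The first comparison asks whether ACLP-NT changed the immediate early genes against saline. No member passed at an adjusted p of 0.05, and Bdnf, Egr4, Fos, Klf6, Dusp5 and Gadd45b had the smallest p. By the edgeR quasi-likelihood test with Benjamini-Hochberg adjustment, 0 of the 33 genes passed, as did 0 of 22065 genes (0%). DESeq2 called 0 of the 33 and 9 of all genes, and limma on log2(FPKM + 1) called 0 and 0. At an unadjusted p under 0.05 there were 7 of the 33 genes (5 higher, 2 lower), against 5.88% of all genes (2.46% higher and 3.43% lower). That count was 3 without saline 19, and DESeq2 gave 8. Bdnf averaged 38.9 ± 3.23 CPM in ACLP-NT and 30.0 ± 4.58 CPM in saline, with a log2 fold change of 0.38 (SE 0.118). Dusp5 averaged 22.1 ± 1.97 CPM in ACLP-NT and 17.4 ± 2.77 CPM in saline, with a log2 fold change of 0.35 (SE 0.129). Egr4 averaged 24.4 ± 0.420 CPM in ACLP-NT and 20.9 ± 1.97 CPM in saline, with 0.22 (SE 0.0771) on the log2 scale, and Gadd45b differed by 0.25 (SE 0.107). Fos averaged 8.85 ± 0.544 CPM in ACLP-NT and 10.8 ± 1.57 CPM in saline, with a log2 fold change of -0.29 (SE 0.101), and Klf6 averaged 29.6 ± 2.31 and 35.3 ± 4.13 CPM in these groups, with -0.26 (SE 0.0924). The edgeR adjusted p of these 6 genes was 0.746 to 0.805. In CPM groups did not overlap for Fos (lower) and Dusp5 (higher), 2 of the 33, against 2.26% of all genes (0.925% higher and 1.33% lower). In FPKM the groups overlapped for Fos.

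As a set, 22 of the 33 genes had a log2 fold change above 0 in ACLP-NT against saline, against 49.4% of all genes, with a median of 0.04 for the 33 genes and -0.0015 for all. The 27 genes outside the 6 named ran from -0.32 to 0.22. The dentate gyrus markers were on the same side as Bdnf and Dusp5: 7 of 7 had a log2 fold change above 0, with a median of 0.23, and 4 had an unadjusted p under 0.05. Of the 9 CA field markers, 7 were above 0 and 2 below (median 0.16), with 0 at an unadjusted p under 0.05. Of 10 glucocorticoid targets, 10 were above 0 (median 0.23) and 6 had an unadjusted p under 0.05. Microglia markers were on the side of Fos and Klf6, with 8 of 8 below 0 (median -0.32) and 7 at an unadjusted p under 0.05. Neocortex markers were also below 0, 8 of 8, with a median of -0.27 and 1 at an unadjusted p under 0.05. Astrocyte markers were below 0 too, 6 of 6, with a median of -0.16 and 2 at an unadjusted p under 0.05. Choroid plexus markers were above 0, 10 of 10, with a median of 0.78 and 0 at an unadjusted p under 0.05. Over the libraries Fos had r = 0.544 with the microglia score (permutation p = 0.0509, adjusted p = 0.515, rho 0.588), which was 0.844 without ACLP-NT 27 and 53 and 0.239 with the group means removed. The part of these markers in the values above was not tested.

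In the second comparison, Aducanumab against saline, Fos had the smallest p, and again no member passed. The edgeR test called 0 of the 33 genes and 0 of all genes (0%), DESeq2 called 0 and 16, and limma on log2(FPKM + 1) called 0 and 0. At an unadjusted p under 0.05 there were 5 of the 33 (1 higher, 4 lower), against 4.68% of all genes (2.07% higher and 2.62% lower). The count was 3 without Aducanumab 24 or without saline 18, and 8 without saline 32. Fos averaged 8.53 ± 0.626 CPM in Aducanumab and 10.8 ± 1.57 CPM in saline, with a log2 fold change of -0.34 (SE 0.107). Klf6 averaged 29.5 ± 3.49 CPM in Aducanumab and 35.3 ± 4.13 CPM in saline, with -0.26 (SE 0.0978). Dusp5 averaged 22.4 ± 4.17 CPM in Aducanumab and 17.4 ± 2.77 CPM in saline, with 0.37 (SE 0.136). Egr1 averaged 75.2 ± 10.3 CPM in Aducanumab and 86.4 ± 4.24 CPM in saline, with -0.20 (SE 0.0872). Ier2 differed by -0.28 (SE 0.128), and Nr4a2 averaged 28.6 ± 6.95 CPM in Aducanumab and 40.5 ± 12.9 CPM in saline, with -0.50 (SE 0.242). The edgeR adjusted p was 0.9997 for each of the 6. Without saline 18, the Nr4a2 value was the lowest in size over the libraries left out in turn, at -0.26. Groups did not overlap for Fos alone, 1 of the 33, against 2.58% of all genes (1.16% higher and 1.41% lower). Both comparisons share the 4 saline libraries, so their values for Fos, Klf6 and Dusp5 are not independent.

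Of the 33 genes, 15 had a log2 fold change above 0 in Aducanumab against saline, against 51.3% of all genes, and the median was -0.02 for the 33 genes and 0.0036 for all. The 8 neocortex markers were all below 0, with a median of -0.47 and 6 at an unadjusted p under 0.05, and Nr4a2 followed the score of these markers across libraries (r = 0.760). The 8 microglia markers were below 0 (median -0.28, 3 at an unadjusted p under 0.05). Of the 9 CA field markers, 6 were above 0 and 3 below (median 0.15). At an unadjusted p under 0.05, 1 of them was higher and 1 lower. Above 0 were 9 of 10 glucocorticoid targets (median 0.23, 6 at an unadjusted p under 0.05) and 7 of 7 thalamus and midbrain markers (median 0.37, 4 at an unadjusted p under 0.05). Summed, the thalamus and midbrain markers had 232 CPM in Aducanumab 50. The other Aducanumab libraries had 106, 105 and 150.5 CPM, and saline libraries 106 to 120 CPM. The 5 blood markers were above 0 too, with a median of 0.46 and 0 at an unadjusted p under 0.05. So were the 10 choroid plexus markers (median 0.80), the 8 meningeal markers (0.30) and the 7 dentate gyrus markers (0.10). Of these, 0, 0 and 1 had an unadjusted p under 0.05. The part of all these markers in the values was not tested.

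In the third comparison, ACLP-NT against Aducanumab, most of the 33 genes were on the ACLP-NT side, and Arc, Nr4a1 and Egr3 had the smallest p. The edgeR test called 0 of the 33 genes and 0 of all genes (0%), DESeq2 called 0 and 3, and limma on log2(FPKM + 1) called 0 and 0. At an unadjusted p under 0.05 there were 3 of the 33, all higher in ACLP-NT, against 3.24% of all genes (1.53% higher and 1.71% lower). That count was 1 without Aducanumab 58, 5 without ACLP-NT 49 and 8 without Aducanumab 56, and DESeq2 and limma on log2(FPKM + 1) each gave 5. Arc averaged 126 ± 7.76 CPM in ACLP-NT and 106 ± 13.7 CPM in Aducanumab, with a log2 fold change of 0.25 (SE 0.0951). Nr4a1 averaged 56.7 ± 3.66 CPM in ACLP-NT and 50.2 ± 5.62 CPM in Aducanumab, with 0.18 (SE 0.0725). Without Aducanumab 58 the Nr4a1 value was 0.0995. Egr3 differed by 0.15 (SE 0.0625), Egr1 by 0.18 (SE 0.0829), Ier5 by 0.21 (SE 0.101) and Klf4 by -0.27 (SE 0.132). Each had an edgeR adjusted p of 1. Groups did not overlap for 0 of the 33, against 1.34% of all genes (0.693% higher and 0.644% lower).

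In that comparison 25 of the 33 genes had a log2 fold change above 0, against 47.6% of all genes, and 8 had one below 0, against 52.4%. The median was 0.13 for the 33 genes and -0.0064 for all, and it was 0.067 without Aducanumab 58. The 8 meningeal markers and the 5 blood markers were all below 0, with medians of -0.43 and -0.60. Also all below 0 were 7 thalamus and midbrain markers (median -0.30), 6 astrocyte markers (-0.084) and 6 oligodendrocyte markers (-0.085). Summed, the thalamus and midbrain markers had 232 CPM in Aducanumab 50, against 95.5 to 162 CPM in ACLP-NT libraries. Above 0 were 7 of 8 neocortex markers (median 0.18), 6 of 7 dentate gyrus markers (0.12) and 6 of 9 CA field markers (0.0094). The part of these markers in the values was not tested.

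**Figure D3:**
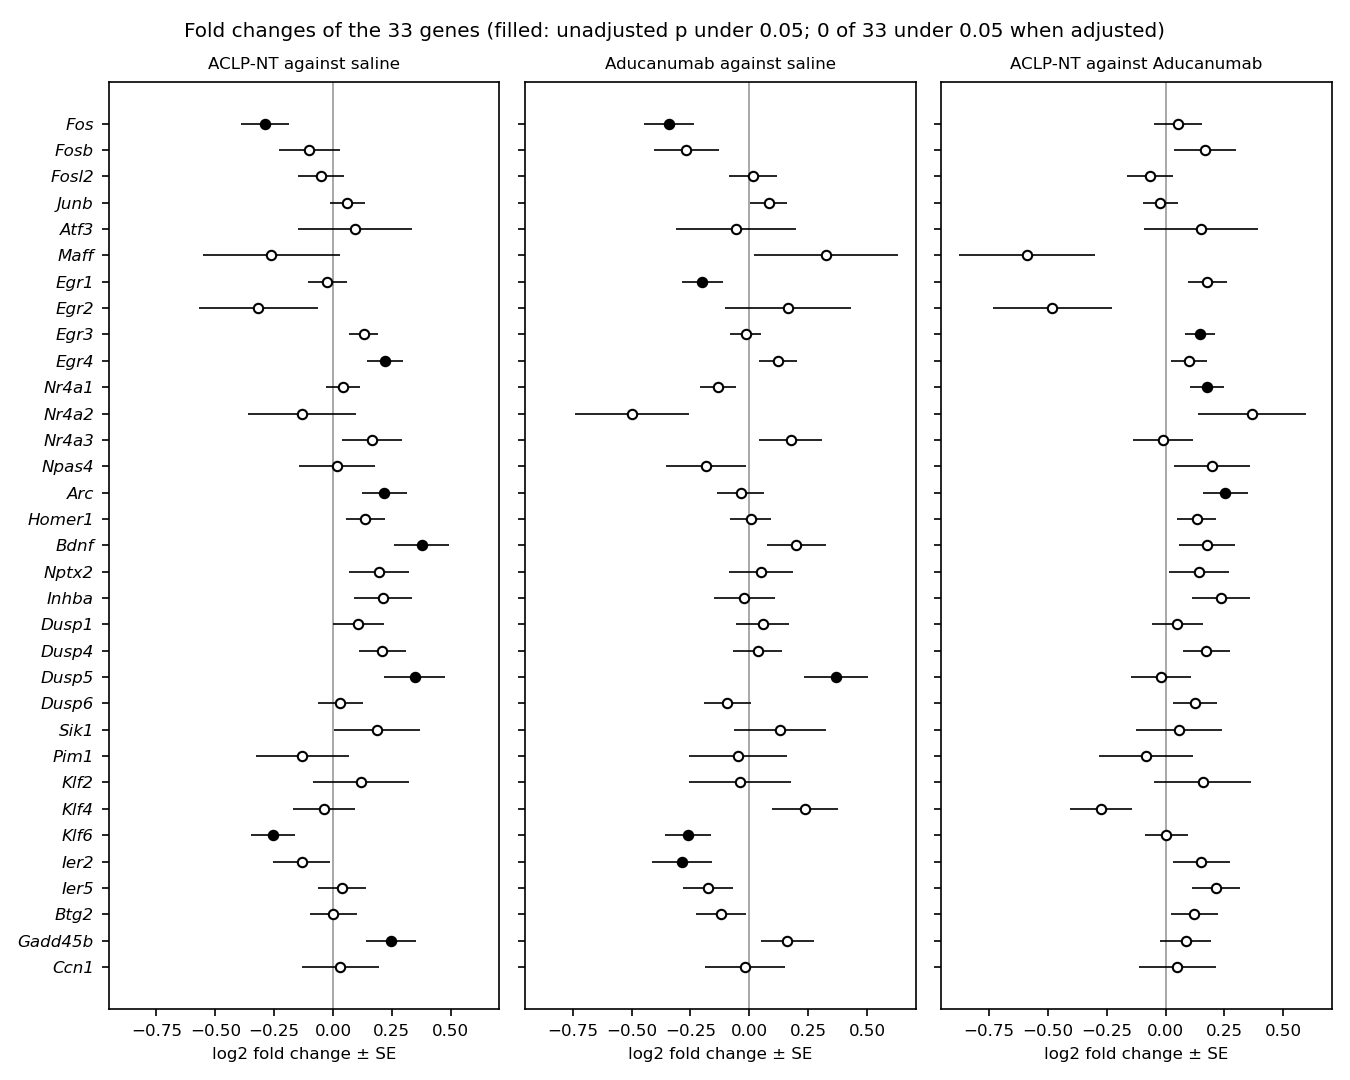
Log2 fold change (horizontal axes) with its SE for each of the 33 genes in the 3 comparisons, ACLP-NT against saline, Aducanumab against saline and ACLP-NT against Aducanumab. Filled points have an unadjusted p under 0.05 (7, 5 and 3 genes), and 0 of 33 passed when adjusted over 22065 genes.

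Related genes were tested beside them. Of 40 other activity-regulated genes, 39 were tested, and 0 passed in any comparison by the edgeR test. The median log2 fold change was 0.0018 in ACLP-NT against saline (20 above 0, 19 below), 0.05 in Aducanumab against saline (23 and 16) and -0.01 in ACLP-NT against Aducanumab (16 and 23). At an unadjusted p under 0.05 there were 2 higher and 3 lower in the first of these comparisons (all genes 5.88%), 3 higher and 1 lower in the second (all genes 4.68%) and 0 higher and 1 lower in the third (all genes 3.24%). Per1, a clock gene that CREB induces, had a log2 fold change of 0.18 (SE 0.0610) with ACLP-NT and 0.20 (SE 0.0642) with Aducanumab, both against saline. Nfkbiz, a nuclear regulator of NF-kB, had 0.29 (SE 0.102) and 0.26 (SE 0.107) in the same comparisons. Kcnf1, a silent potassium channel subunit, had -0.35 (SE 0.131) in ACLP-NT against saline, and Rgs2, a brake on G protein signalling, -0.21 (SE 0.0922) in Aducanumab against saline. Between ACLP-NT and Aducanumab the smallest p were those of Ier3 (-0.46, SE 0.190), Plk2, a kinase of synaptic downscaling (0.17, SE 0.0818), and Nfil3 (-0.20, SE 0.1001). The edgeR adjusted p was at least 0.752 for all of these.

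The pathway that leads to the immediate early genes (receptors, channels, kinases, CREB, serum response factor and their partners) was also tested. Of 37 listed symbols, in which Mkl1 and Mrtfa name the same gene, 36 were tested. In all comparisons 0 passed by the edgeR test. The medians were 0.03, 0.01 and 0.04 in the 3 comparisons in the same order. At an unadjusted p under 0.05 there were 4 higher and 3 lower, 1 higher and 2 lower, and 1 higher and 1 lower, against the same shares of all genes. In ACLP-NT against saline the smallest p were those of Rps6ka1, a kinase below ERK (-0.29, SE 0.0931), Mapk3, which is ERK1 (-0.17, SE 0.0606), and Grin2a, an NMDA receptor subunit (0.23, SE 0.0917). In Aducanumab against saline they were those of Mef2c (-0.53, SE 0.170), Cacna1c, the pore of an L-type calcium channel (0.26, SE 0.0912), and Map2k2 (-0.09, SE 0.0396). Mef2c averaged 102 ± 10.4 CPM in Aducanumab and 148 ± 45.2 CPM in saline. In ACLP-NT against Aducanumab they were those of Rps6ka5 (-0.16, SE 0.0666), Adcy1, a calcium-stimulated adenylyl cyclase (0.23, SE 0.103), and Elk1 (0.08, SE 0.0441). The edgeR adjusted p was at least 0.746 for all 9.

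Covariation between the genes was then described over the 13 libraries, as Pearson's r of log2 CPM. Over their 528 pairs the median r was 0.052, with a middle range of -0.19 to 0.36, and 289 pairs (54.7%) were above 0. Among members with a mean of at least 5 CPM alone the median r was 0.154. An r of at least 0.7 was reached by 20 pairs (3.79%), against 1.14% of the 727056 pairs of a member with another tested gene, whose median r was -0.0096. These 20 pairs involved 14 genes. With the group means removed 25 pairs were at 0.7 or above, among them 13 of these 20, and 9 of the 20 were when the 2 libraries farthest from the median of the first gene were left out. By a two-sided permutation test with 100000 resamples, 84 pairs (15.9%) had an unadjusted p under 0.05, against 8.29% of the pairs with other genes. Adjusted over all 727584 pairs, 0 passed, and the smallest adjusted p was 0.159. The smallest p that these resamples can give is 1e-05. For pairs at that p to pass by themselves, at least 146 of all pairs would have to reach it, and 47 did. Pairs of genes share libraries and tissue composition, so they are not independent. The other genes in these shares were not matched to the members in level. Of those other genes, 16152 had a mean of at least 1 CPM, and the lowest mean of a member was 1.51 CPM (Maff). The median r of 0.154 was not set against other genes of that level.

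The closest pair was Egr4 and Dusp5, with r = 0.887 (permutation p = 2e-05, adjusted p = 0.159) and Spearman's rho of 0.896, and r was 0.786 without saline 19 and 38. Both were lowest in saline 19 and highest in Aducanumab 56. Next came Junb and Nr4a3 with r = 0.872 (permutation p = 0.0001, adjusted p = 0.183, rho 0.885), Nr4a3 and Dusp5 with 0.856 (permutation p = 0.00013, adjusted p = 0.189, rho 0.742), and Egr4 and Nr4a3 with 0.844 (permutation p = 0.00053, adjusted p = 0.256, rho 0.769). These 3 values were 0.742, 0.743 and 0.764 with the 2 farthest libraries left out. Bdnf joined them through Gadd45b, with r = 0.835 (permutation p = 0.00062, adjusted p = 0.264, rho 0.824), and through Egr4, with r = 0.83 (permutation p = 0.00069, adjusted p = 0.271, rho 0.824). They were 0.783 and 0.797 with the 2 farthest libraries left out. Egr3 and Dusp4 had r = 0.792 (permutation p = 0.00197, adjusted p = 0.334, rho 0.786), and 0.720 with 2 left out. Ordered by similarity, Egr4, Dusp5, Junb, Nr4a3, Egr3, Dusp4, Arc, Bdnf and Gadd45b lay together. These 9 genes were picked after their values were seen, and their 36 pairs ran from 0.396 to 0.887.

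Some of the other close pairs rested on Aducanumab 58. Nr4a1 and Dusp6 had r = 0.842 (permutation p = 0.00395, adjusted p = 0.386, rho 0.549), which was 0.490 without Aducanumab 58 and 0.632 without ACLP-NT 27 and Aducanumab 58. Egr1 and Nr4a1 had r = 0.795 (permutation p = 0.00287, adjusted p = 0.362, rho 0.560), which was 0.513 without Aducanumab 58 and 0.483 without Aducanumab 24 and 58. Fosb and Egr1 had r = 0.777 (permutation p = 0.00242, adjusted p = 0.350, rho 0.742), which was 0.556 without Aducanumab 58 and 0.546 without Aducanumab 50 and 58. In these pairs both genes were lowest in Aducanumab 58.

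The activity markers Fos and Arc had r = 0.105 (permutation p = 0.740, adjusted p = 0.960, rho -0.104), and r was -0.204 without saline 32 and 38 and 0.484 with the group means removed. The gene closest to Fos was Ier2, with r = 0.654 (permutation p = 0.0162, adjusted p = 0.498, rho 0.577), and 0.486 without saline 32 and 38. Fos had no partner at 0.7 or above, and its r with the 9 genes named above was -0.467 to 0.105. With the group means removed these 9 values ran from -0.346 to 0.484, and the pairs among the 9 genes from 0.353 to 0.909. The part of differences between the groups in the place of Fos was not tested. The gene closest to Arc was Bdnf, with r = 0.752 (permutation p = 0.00413, adjusted p = 0.390, rho 0.780), and Arc had r = 0.679 with Npas4 (permutation p = 0.00995, adjusted p = 0.453, rho 0.681). Without saline 18 and Aducanumab 58 these were 0.678 and 0.679. Arc had the highest median r to the other 32 genes, at 0.40, followed by Dusp6 at 0.34 and Egr3 at 0.33. The lowest medians were those of Maff (-0.26), Klf4 (-0.20), Klf2 (-0.18), Pim1 (-0.16) and Klf6 (-0.11), and those of Fos and Egr1 were 0.086 and 0.14.

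At -0.7 or below there were 3 pairs (0.568%), against 0.674% of the pairs of a member with another tested gene. Bdnf and Klf6 had r = -0.733 (permutation p = 0.00430, adjusted p = 0.393, rho -0.780), Dusp5 and Klf6 -0.710 (permutation p = 0.00702, adjusted p = 0.428, rho -0.538), and Nr4a2 and Maff -0.706 (permutation p = 0.00729, adjusted p = 0.431, rho -0.495). With the 2 farthest libraries left out they were -0.570, -0.565 and -0.757. With the group means removed they were -0.628, -0.478 and -0.716, and 6 pairs were at -0.7 or below, of which Nr4a2 and Maff was the only 1 of these 3. The other 5, chosen after their values were seen, were Dusp1 and Bdnf (-0.864), Egr1 and Atf3 (-0.834), Fosb and Atf3 (-0.761), Nr4a2 and Btg2 (-0.709) and Dusp5 and Pim1 (-0.703). Leaving out saline 19 alone gave -0.543 for Dusp5 and Klf6, and leaving out ACLP-NT 27, where Maff had 30 counts, gave -0.594 for Nr4a2 and Maff. Klf6 was below 0 with each of the 9 genes named above, from -0.733 to -0.287, and from -0.691 to -0.141 with the group means removed.

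**Figure D4:**
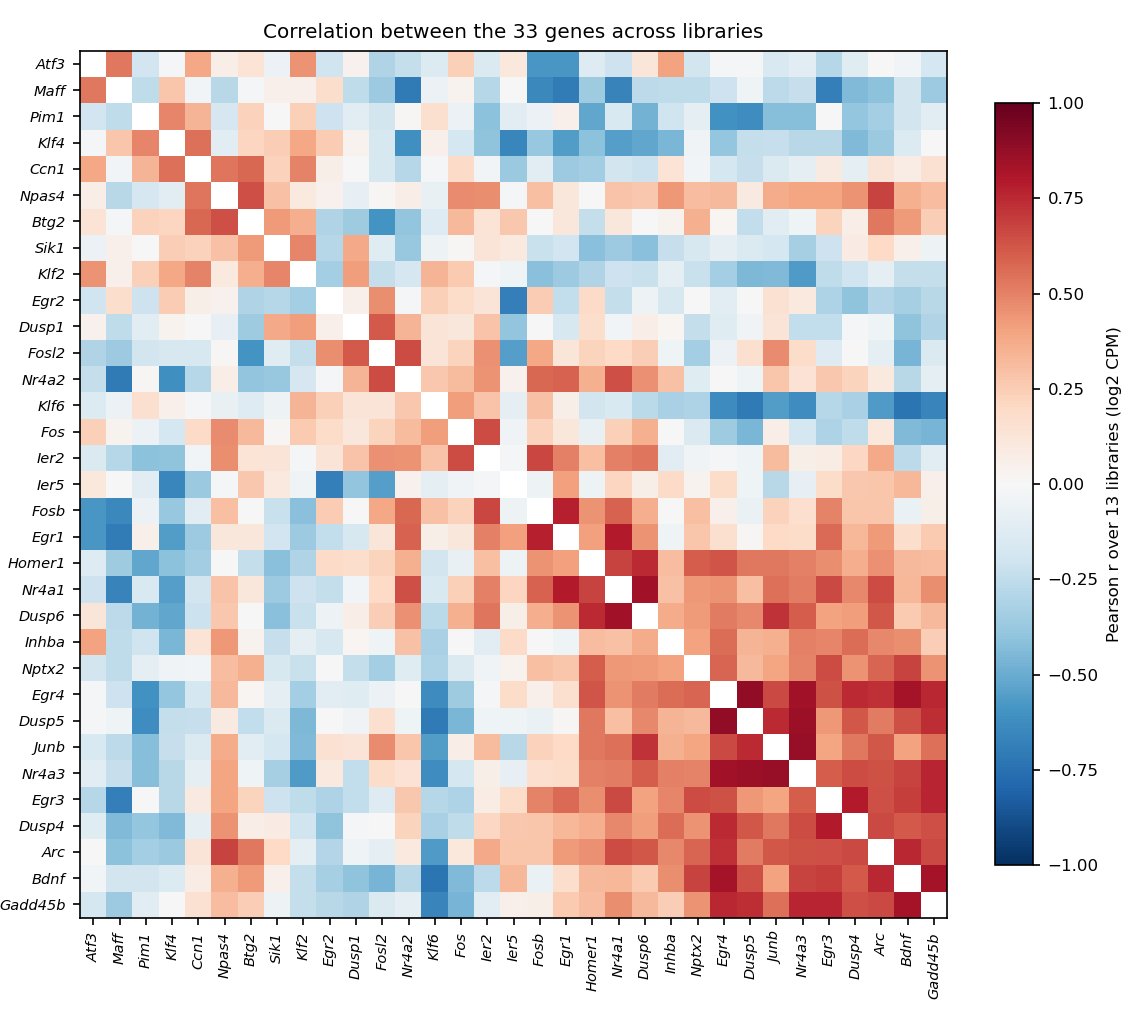
Pearson's r over 13 libraries for each pair of the 33 genes, both axes in the same order, from average linkage on 1 minus r. Red is positive and blue negative. Egr4, Dusp5, Junb, Nr4a3, Egr3, Dusp4, Arc, Bdnf and Gadd45b form a red square with r of 0.396 to 0.887, and Fos and Klf6 lie outside it.

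The same genes were set against marker scores of tissue and cell types over the 13 libraries. Over 594 pairs of a gene with 1 of 18 measures (16 marker lists, the mitochondrial share and the total count), 82 (13.8%) had an unadjusted permutation p under 0.05. The share of all genes at that p was not counted, so 13.8% cannot be set against it. Adjusted over 397170 pairs of any tested gene with a measure, 0 passed on Pearson's r, with 0.0562 as the smallest adjusted p. The pairs described here were picked for an absolute r of at least 0.7 after their values were seen. The CA field markers, which label pyramidal neurons, had the most such partners: 8 of the 33 genes (24.2%) had an r of at least 0.7, against 2.95% of all genes. They were Junb (0.804), Nr4a3 (0.794), Dusp5 (0.760), Homer1 (0.751), Egr4 (0.750), Dusp4 (0.729), Dusp6 (0.728) and Nr4a1 (0.711). Both Aducanumab 58 and saline 19 lay at the low end of this score, and without them the 8 values ran from 0.121 (Dusp6) to 0.660 (Dusp5). The summed level of the 9 tested CA field markers was 1401 to 1608 CPM in ACLP-NT, 1275 to 1631 CPM in Aducanumab and 1273 to 1525 CPM in saline libraries. With the dentate gyrus and neocortex markers, 1 of the 33 genes each (3.03%) reached 0.7, against 1.45% and 1.69% of all genes. Bdnf, which dentate granule cells express, had r = 0.818 with the dentate gyrus markers (permutation p = 0.00074, adjusted p = 0.113, rho 0.802), and 0.820 without ACLP-NT 53 and saline 19. The summed dentate gyrus markers had 442 to 555 CPM in ACLP-NT, 425 to 509 CPM in Aducanumab and 398 to 457 CPM in saline libraries. Klf6 had r = -0.750 with the same markers (permutation p = 0.00337, adjusted p = 0.216, rho -0.588), and -0.615 without these 2 libraries. Nr4a2 had r = 0.760 with the neocortex markers (permutation p = 0.00222, adjusted p = 0.181, rho 0.692), and 0.597 without Aducanumab 56 and saline 18. The neocortex markers had 156 to 220 CPM in ACLP-NT, 142 to 191 CPM in Aducanumab and 175 to 291 CPM in saline libraries.

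Other members had a high r with markers of non-neuronal tissue. With choroid plexus, meningeal and endothelial markers, 1 of the 33 genes each (3.03%) had an r of at least 0.7. The shares of all genes were 4.23%, 2.36% and 1.98%. For pericyte and smooth muscle markers it was 2 of the 33 (6.06%) against 1.95%, and for the mitochondrial share 1 (3.03%) against 1.02%. Of all genes, 241 (1.09%) passed adjustment with the choroid plexus score. Sik1 had r = 0.893 with the choroid plexus markers (permutation p = 0.00016, adjusted p = 0.0562, rho 0.885), and 0.868 without Aducanumab 50 and saline 18. The score has a gap between the 4 lowest libraries and the other 9. Over these 9, with a score above -1, r was 0.770 and rho 0.750, given as a description because the division was made after the scores were seen. With group means removed r was 0.887 and the adjusted p 0.0158. Klf2 had r = 0.806 with the endothelial markers (permutation p = 0.00159, adjusted p = 0.159) and 0.804 without Aducanumab 58 and saline 19. Its rho of 0.907 had an adjusted permutation p of 0.0434. The 8 endothelial markers summed to 263 to 335 CPM in ACLP-NT, 282 to 398 CPM in Aducanumab and 273 to 343 CPM in saline libraries. Klf2 also had r = 0.767 with meningeal fibroblast markers and 0.752 with pericyte and smooth muscle markers, and the second was 0.433 without Aducanumab 56 and 58. Klf4 had r = 0.726 with pericyte and smooth muscle markers and 0.762 with the mitochondrial share of counts, which ran from 6.62% to 7.84%. Negative values of -0.7 or below were found for Egr3 with astrocyte markers (-0.761), Btg2 with neuron markers (-0.743) and Junb with striatum markers (-0.708, and -0.398 without Aducanumab 24 and saline 19). That is 1 of the 33 genes for each of these lists, against 0.535%, 1.84% and 0.993% of all genes. How much of a gene's variation these tissues account for was not tested.

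**Figure D5:**
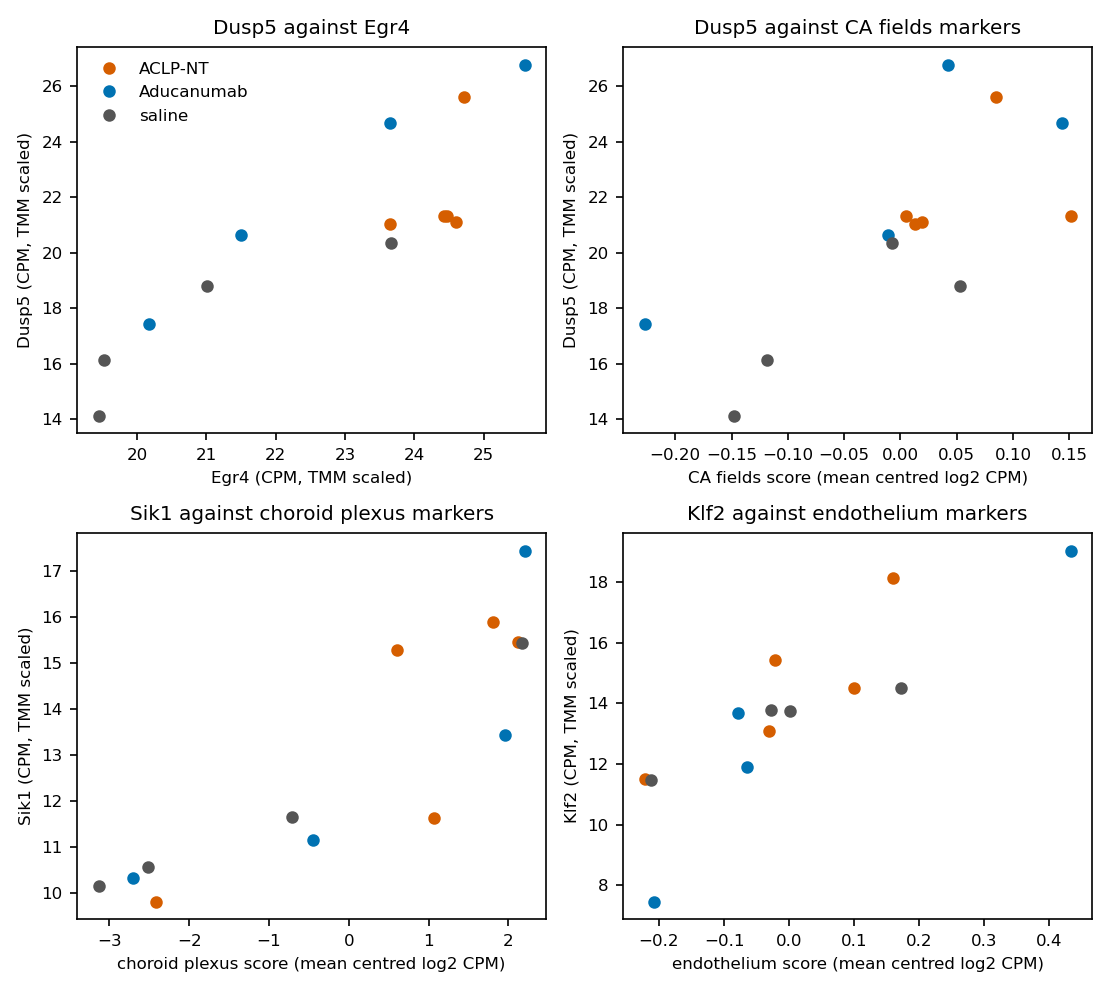
Level of Dusp5 against Egr4 and against the CA field score, of Sik1 against the choroid plexus score and of Klf2 against the endothelium score. Each point is 1 of the 13 libraries, coloured ACLP-NT, Aducanumab or saline, levels are in CPM and scores are the mean centred log2 CPM of the markers. The r values are 0.887, 0.760, 0.893 and 0.806. In the Dusp5 and Egr4 panel the ACLP-NT points lie close together, between 23.6 and 24.7 CPM of Egr4.

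No gene outside the 33 followed them closely as a group. Among 16152 other genes with a mean of at least 1 CPM, the 10 with the highest mean r to the members were Gtf2h5, Hebp1, Arhgef2, Irak1bp1, Bcas2, Rpusd4, Smyd4, Bzw2, Scn3a and Rc3h2. Their mean r was 0.274 (Rc3h2) to 0.290 (Gtf2h5), over 13 libraries, and the median over the 16152 genes was -0.0056.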

How the data were processed

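Poly(A) RNA of 13 hippocampi was sequenced in bulk, 1 library per numbered animal. The authors deposited raw counts (whole numbers, not normalized) and FPKM values, which the authors scaled to gene length and library total, per the file headers. Per the submitters' processing notes, edgeR, StringTie 1.3.4d, HISAT2 2.0.4 and cutadapt 1.9 were used. The sources used here do not name the counter, its strand setting, the annotation or the build, so reads of overlapping and antisense genes cannot be told apart. Total counts were 53642019 to 64874729 in ACLP-NT, 56858092 to 64431803 in Aducanumab and 57513570 to 69734713 in saline. Libraries of a group differed by more than sampling noise (reduced chi-square of 13.1 or more) and each is 1 sample. The p-values measure only the spread between these samples.

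Counts were filtered with filterByExpr (22065 genes), scaled by TMM and fitted with the edgeR 4.0.16 quasi-likelihood test, 3 groups in 1 fit, with Benjamini-Hochberg adjustment over all genes at 0.05. The SE of a fold change is its size over the root of the F statistic. Covariation used log2 CPM (prior count 2), Pearson's r and Spearman's rho with 100000 resamples (python 3.11.15, scipy 1.17.1). Alternatives were RLE and upper quartile scaling, no filter, DESeq2 1.42.0, limma 3.58.1 on log2(FPKM + 1) and log2(FPKM + 0.1), fits of 2 groups, and each library left out. Named were, per comparison, the 6 members and the 3 genes of each list with the smallest p, the 10 highest and 3 lowest pairs, and the 10 genes most like the members. Pairs with marker lists, and those of Fos and Arc, were added after their values were seen. The members and lists were chosen with earlier results of these data known. The tests were tried on simulated data.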

Additional observations from a re-analysis of the deposited data

Results flagged for a closer look

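In 5 of 99 groups of values (33 genes in 3 groups), 1 library lay far from the others by Dixon's criterion at 95%, which chance alone gives in about 1 in 20 groups. Egr4 had 23.6 CPM in ACLP-NT 53, against 24.4 to 24.7 CPM in the other ACLP-NT libraries. Dusp5 had 25.6 CPM in ACLP-NT 17, against 21.0 to 21.3 CPM in the others of that group. Nr4a1 had 41.8 CPM in Aducanumab 58, against 52.2 to 53.9 CPM in the other Aducanumab libraries. Bdnf had 43.9 CPM in Aducanumab 56, against 30.7 to 31.8 CPM in the others of that group. Btg2 had 13.7 CPM in saline 18, against 18.4 to 19.2 CPM in the other saline libraries.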

How the results depend on the processing

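No paired analysis was possible because the 3 groups share no replicate number. Of the values that answer a comparison, 312 stayed on their side of the threshold or within their spread under the alternatives run, 10 moved and 0 reversed. The 33 genes had 0 calls (edgeR, DESeq2 and limma) under every alternative run. Over all genes, where edgeR called 0, DESeq2 called 9 in ACLP-NT against saline, 16 in Aducanumab against saline and 3 in ACLP-NT against Aducanumab. With 1 library left out the edgeR count was 0 to 1 in each comparison. It was 1 without saline 32 in both comparisons with saline, and 1 without ACLP-NT 49 in Aducanumab against saline and in ACLP-NT against Aducanumab. The median log2 fold change of the 33 genes in ACLP-NT against Aducanumab was 0.067 to 0.14 over these fits, lowest without Aducanumab 58. The median r over pairs was 0.154 for members with a mean of at least 5 CPM alone. Pairs with r of at least 0.7 numbered 16 (without Aducanumab 58) to 29 (without Aducanumab 24). With group means removed, 8 of 594 pairs of a gene with a marker measure passed (share over all genes not counted). The 6 of them named above were Sik1 with choroid plexus (adjusted permutation p 0.0158), Klf2 with pericyte (0.0195), meningeal (0.0271) and endothelial markers (0.0366), Klf4 with the mitochondrial share (0.0256) and Junb with CA fields (0.0490). That setting does not lower the residual degrees of freedom, so its p is somewhat too small. The cause of these shifts was not tested. Depth limits Maff, Pim1, Egr2 and Atf3, which had 30 to 267 counts per library.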
